A study of Mus musculus with 18 samples.

Results

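The genes described here are the folding and quality-control machinery of the endoplasmic reticulum (ER): chaperones, disulfide enzymes, the sensors of unfolded protein, and the genes of ER-associated degradation and protein entry. They were taken as the 35 gene symbols of a list, looked up in the deposited count table of 55536 genes, and all 35 were found and had enough reads to be tested. The measurements are read counts from RNA of whole mouse pancreatic islets.

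Proteins for the secretory pathway enter the ER through the Sec61 channel, fold with the help of the chaperone BiP and of lectin chaperones, and gain disulfide bonds from protein disulfide isomerases, which are in turn oxidised by the Ero1 enzymes. Proteins that do not fold are recognised, moved back to the cytosol and degraded by the proteasome, which is called ER-associated degradation. When unfolded protein builds up, the sensors IRE1 (gene Ern1), ATF6 and PERK start the unfolded protein response, in which spliced XBP1 and cleaved ATF6 raise transcription of many of these genes. Insulin is made in large amounts and needs disulfide bonds, so beta cells carry a heavy load on this machinery.

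The mice were males of the strain NOD.CB17-Prkdcscid/NCrCrl, aged 17 weeks, which lack mature T and B lymphocytes, and this holds for every group. They were knockout (KO), heterozygous (Het) or wild type (WT) for Slc30a8, the gene of the granule zinc transporter ZnT8. Islets of each genotype rested overnight and were then cultured for 24 h either with 3 cytokines, IL-1β at 150 pg/ml, TNF-α at 100 pg/ml and IFN-γ at 10 pg/ml, or untreated. This gave 6 groups of 3 libraries: KO with cytokines, KO untreated, Het with cytokines, Het untreated, WT with cytokines and WT untreated. The labels do not say whether a library is 1 mouse or a pool, or whether libraries of the same number share a mouse, so p-values measure only the spread between these libraries. Replicate numbers are those of the labels' descriptions. The labels name no deleted exon of Slc30a8.

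The 18 libraries held 22990164 to 29946680 counted reads, and levels are given as CPM, the gene's count scaled to a common library size. With cytokines Slc30a8 itself was at 20.0 to 23.2 CPM in KO and 32.1 to 56.6 CPM in Het islets, against 34.5 to 46.4 CPM in WT islets. Untreated it was at 44.0 to 55.9 CPM in KO and 95.7 to 126.1 CPM in Het islets, against 98.9 to 124.8 CPM in WT islets. Within each treatment its level set KO apart from the other genotypes, while the Het and WT ranges overlapped and do not check the label Het. The islet libraries carried the tissue's markers: the summed level of 12 beta cell genes was 144400 to 233600 CPM, and none of the 12 was at 0 in any library. Of 8 T and B cell markers, up to 4 were at 0 in a library, and their sum was 1.39 to 3.88 CPM apart from 22.3 CPM in untreated KO replicate 3. The 35 genes together took 1.28% to 1.56% of all reads.

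In the levels of the 35 genes 1 library stands apart. Untreated Het replicate 1 had the lowest sample quality weight of the 18, 0.242 on a scale where the next lowest were 0.470 for untreated KO replicate 3 and 0.587. For 31 of the 35 genes it was the highest of the 3 untreated Het libraries, and for 33 of 35 it lay above the mean of untreated WT islets, against 5 and 14 of 35 in untreated Het replicates 2 and 3. Its summed markers also differed from theirs. It had 1123 CPM of mesenchymal and 1643 CPM of duct markers, against 2881 and 3148 CPM of mesenchymal and 3772 and 4883 CPM of duct markers in the other two. It had 19120 CPM of alpha, 201500 CPM of beta and 7188 CPM of delta markers, against 12920 and 14690 CPM of alpha, 181600 and 164000 CPM of beta and 5274 and 5522 CPM of delta markers in those. Duct sums of the other untreated groups were 1313 to 1884 CPM in KO and 1791 to 2805 CPM in WT islets. The duct sum of Het replicate 1 lay within the KO range. Those of Het replicates 2 and 3 lay above every untreated KO and WT library. Untreated mesenchymal sums were 1634 to 3816 CPM in KO and 1703 to 1916 CPM in WT islets, above that of Het replicate 1. The part of these markers in the ER gene levels was not tested. Counts that rest on untreated Het islets are therefore also given without replicate 1, and the genes whose call it changed are named. Since it was the highest for most of the 35 genes, leaving it out lowers their untreated Het mean by construction. Untreated KO replicate 3 differed from KO replicates 1 and 2 in its markers. It had 418.5 CPM of macrophage markers against 159.6 and 172.6 CPM, and 3816 CPM of mesenchymal markers against 1761 and 1634 CPM. Its T and B cell sum was 22.3 CPM against 3.15 and 2.31 CPM. The part of this in its ER gene levels was not tested.

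**Figure D1:**
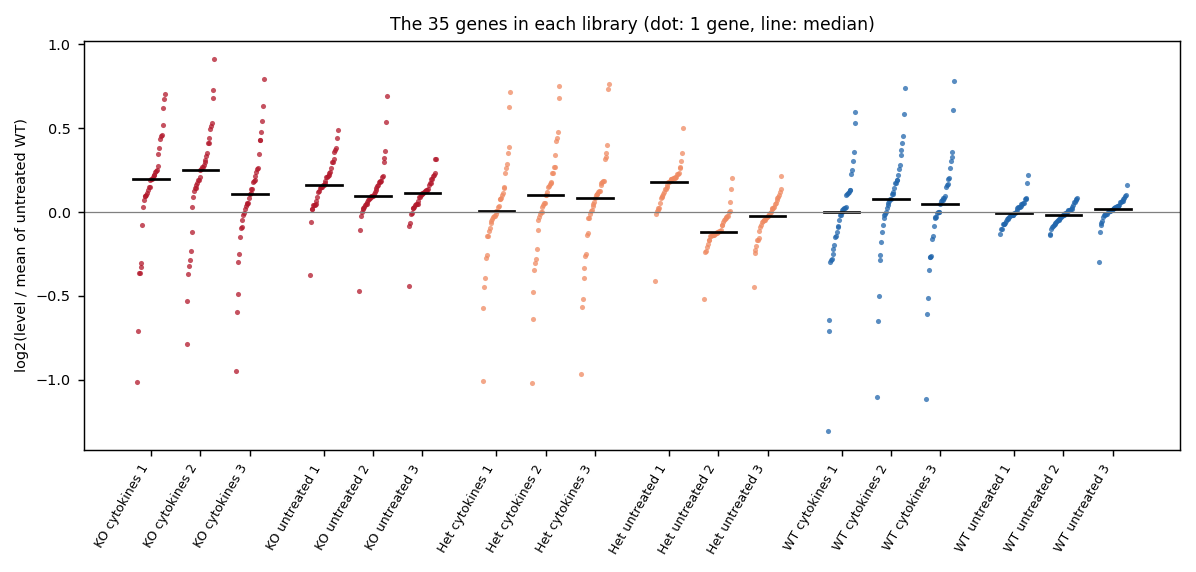
Each dot is 1 of the 35 genes in 1 of the 18 libraries, as log2 of its level over the mean of the 3 untreated WT libraries, and each black line is a library's median. Untreated Het replicate 1 has a median of 0.18, against -0.12 and -0.02 in the other untreated Het libraries, and the 6 KO medians lie between 0.10 and 0.25. The lowest dot in each of the 9 cytokine libraries is Ero1lb.

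Levels between genes were compared per kilobase of exon. In untreated WT islets the highest by this measure was P4hb, the classical protein disulfide isomerase, at 485 ± 22.1 CPM per kb (SD, n = 3). Hspa5, which encodes BiP, followed at 428 ± 12.8 CPM per kb, then the lectin chaperone Calr at 343 ± 5.33, the isomerase Pdia3 at 337 ± 19.4 and Hsp90b1, the ER form of HSP90, at 285 ± 14.7 CPM per kb. P4hb and Hspa5 were further apart than their SDs, as were Hspa5 and Calr, whereas Calr and Pdia3 were not. These SDs hold the spread between libraries and no uncertainty of the exon length, which was 2.861 kb for P4hb and 4.229 kb for Hspa5. Before division by length Hspa5 was the higher of the pair, at 1810 CPM against 1387 CPM for P4hb. At the other end were Pdia5 at 13.4 ± 0.892, Derl2 at 8.45 ± 0.310 and Derl3, a derlin, at 3.37 ± 0.552 CPM per kb. Derl3 had 127 to 267 reads per library, and is the gene with the widest counting error.

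A known control element of this machinery is the ER stress response element (ERSE), which holds CCAAT and CCACG with 9 bases between them, and the shorter ERSE-II holds ATTGG and CCACG with 1 base between them. Both strands of RefSeq promoter windows (build GRCm38.p6, from 250 bases before the transcription start to 50 after) were searched for these letters, and 28 of the 35 genes had a window. ERSE was found in 9 of their 29 windows, which is 31% of them, against 0.119% of all 32851 windows. ERSE-II was found in 2, which is 6.9% against 0.0365%. The core of the unfolded protein response element, TGACGTGG, whose last 5 letters are CCACG read on the other strand and so can overlap the other motifs, was in none, against 0.676% of all windows. A match is a stretch of letters and was not tested as a binding site. All 12 matched elements are shown, so that the bases between the fixed ends can be compared, with both ends of the motif in capitals, 5′ to 3′ on the strand given.
Hspa5 ERSE, chr2:34772025-34772043, plus strand: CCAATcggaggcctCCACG
Hsp90b1 ERSE, chr10:86705638-86705656, minus strand: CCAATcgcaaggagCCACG
Hsp90b1 second ERSE, chr10:86705533-86705551, plus strand: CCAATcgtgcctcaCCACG
Dnajc3 ERSE, chr14:118937827-118937845, plus strand: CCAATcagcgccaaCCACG
Creld2 ERSE, chr15:88819520-88819538, minus strand: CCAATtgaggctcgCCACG
Calr ERSE, chr8:84847075-84847093, plus strand: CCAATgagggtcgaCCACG
Canx ERSE, chr11:50325800-50325818, minus strand: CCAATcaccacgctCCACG
Pdia6 ERSE, chr12:17266491-17266509, plus strand: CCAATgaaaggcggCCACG
Syvn1 ERSE, chr19:6046532-6046550, plus strand: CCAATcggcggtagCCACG
Derl3 ERSE, chr10:75893242-75893260, minus strand: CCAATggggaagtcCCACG
Dnajb11 ERSE-II, chr16:22857852-22857862, plus strand: ATTGGcCCACG
Herpud1 ERSE-II, chr8:94386377-94386387, plus strand: ATTGGgCCACG

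The whole window of Hspa5 is shown because BiP is the textbook target of this element, and that of Calr because Calr had the largest rise with cytokines of the genes that hold ERSE. Capitals mark the whole 19-base element, which in Calr reads on the other strand of the gene.
Hspa5, chr2:34771840-34772139, plus strand: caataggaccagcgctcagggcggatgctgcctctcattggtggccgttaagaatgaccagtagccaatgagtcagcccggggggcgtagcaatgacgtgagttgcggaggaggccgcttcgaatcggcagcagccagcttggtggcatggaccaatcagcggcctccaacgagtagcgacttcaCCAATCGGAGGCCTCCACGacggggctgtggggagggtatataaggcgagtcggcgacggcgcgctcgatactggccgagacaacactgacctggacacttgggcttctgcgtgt
Calr, chr8:84846882-84847181, minus strand: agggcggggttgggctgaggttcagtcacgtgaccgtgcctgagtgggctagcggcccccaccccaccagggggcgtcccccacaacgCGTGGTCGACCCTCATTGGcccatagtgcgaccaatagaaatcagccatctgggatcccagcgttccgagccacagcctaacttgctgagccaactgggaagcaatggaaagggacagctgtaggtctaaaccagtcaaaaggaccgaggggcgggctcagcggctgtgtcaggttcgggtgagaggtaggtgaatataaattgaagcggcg

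**Figure D2:**
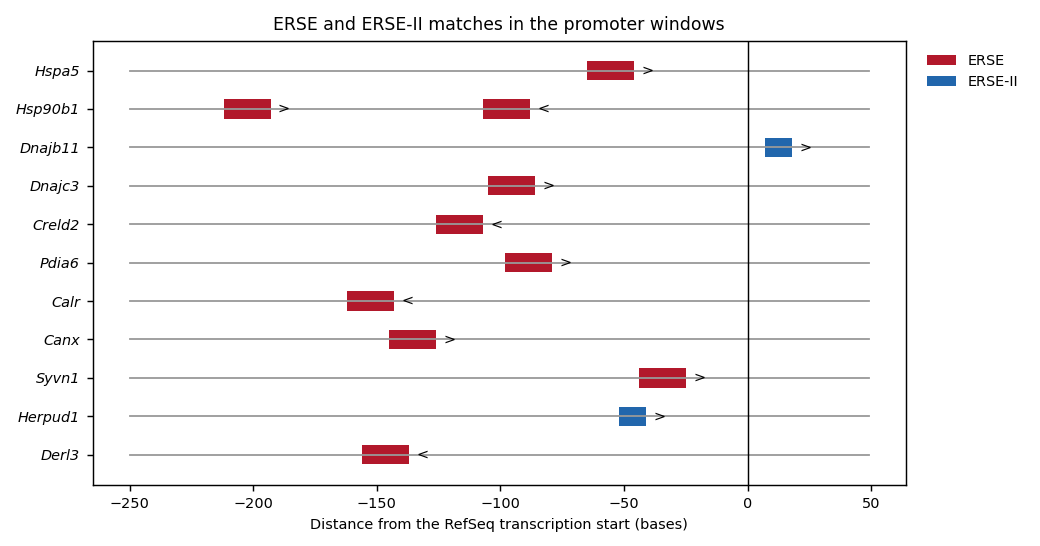
Positions of ERSE (red) and ERSE-II (blue) in the promoter windows of the 11 genes that hold either, as distance in bases from the RefSeq transcription start, with > or < for the strand of the motif relative to the gene. Hsp90b1 has 2 ERSE matches, and the ERSE-II of Dnajb11 lies after the start.

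The first question is what the cytokines did to this machinery in islets of each genotype. Total Xbp1 and Edem1 mRNA, the disulfide isomerases P4hb and Pdia6, the lectin chaperone Calr and the channel subunit Sec61g rose in all 3 genotypes. The oxidase Ero1lb, the sensor Ern1, wolframin (Wfs1) and the degradation adaptor Sel1l fell in all 3. Calr, Sec61g and Sel1l lost their Het calls when only the Het groups were fitted. In the fit of all 18 libraries the chaperone core around BiP did not pass the test in any genotype, except Dnajb11 in WT islets, while Hyou1 in Het islets and Dnajb9 in each genotype passed in 3 or 4 of 16 alternatives. In KO islets 9 genes rose and 6 fell of the 35, where 31.3% of the 17590 genes tested passed, 15.3% higher and 16.0% lower. In Het islets 8 rose and 4 fell, where 24.5% of all genes passed, 12.7% higher and 11.7% lower, and without untreated Het replicate 1 the counts were 12 higher and 3 lower, where 22.8% of the genes tested in that fit passed. In WT islets 8 rose and 6 fell, where 25.7% did, 12.5% higher and 13.1% lower. The share of the 35 that passed was 42.9% in KO, 34.3% in Het and 40.0% in WT islets, and no test was made of its difference from all genes. Libraries with cytokines lay wholly above untreated ones for 13 of the 35 in KO, 8 in Het and 12 in WT islets, where 20.1%, 17.7% and 23.1% of all genes did. They lay wholly below for 9, 7 and 8, where 22.6%, 17.4% and 23.4% of all genes did, so that 42.6%, 35.1% and 46.5% of all genes had groups apart in KO, Het and WT islets. The median log2 fold change of the 35 was 0.04, 0.05 and 0.03 in KO, Het and WT islets, against -0.03, -0.03 and -0.01 over all genes.

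**Figure D3:**
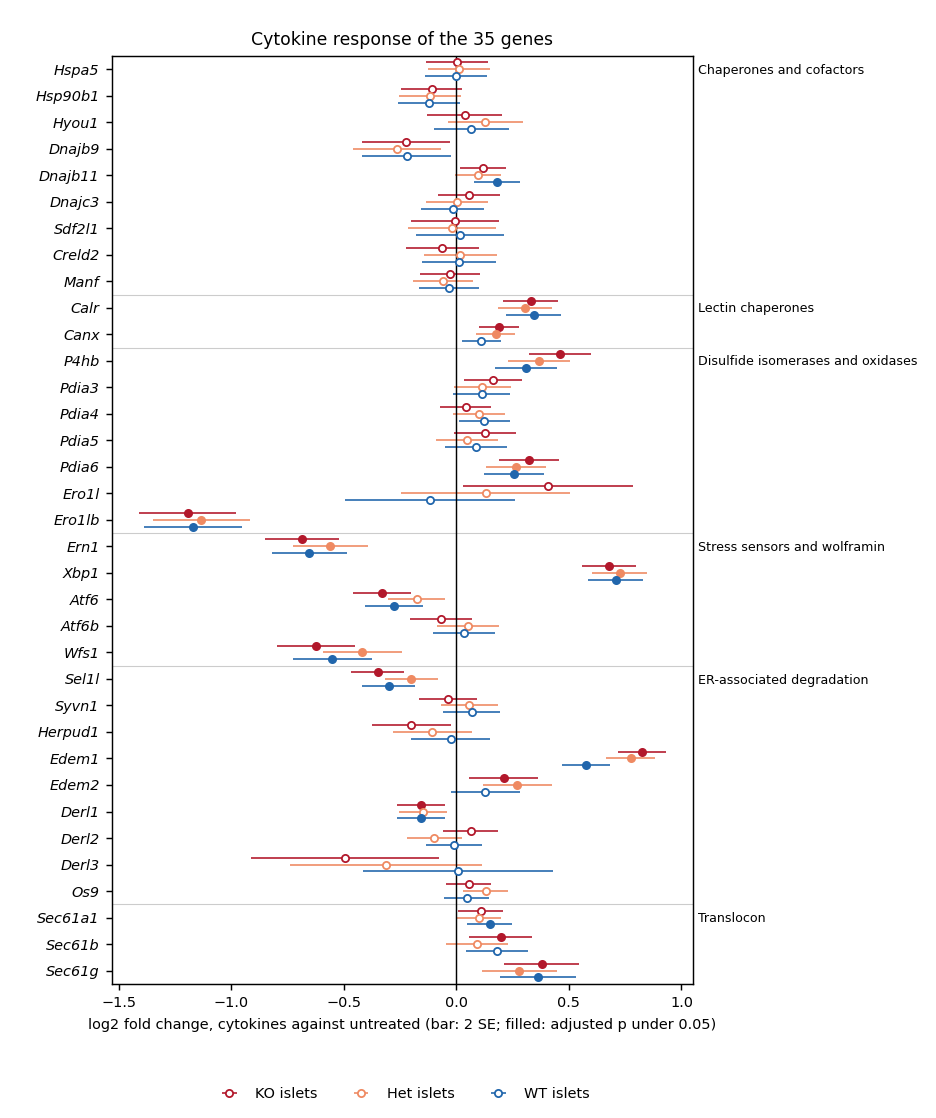
Log2 fold change of each of the 35 genes with cytokines against untreated, with bars of 2 standard errors, in KO, Het and WT islets (3 libraries per group), ordered by role; filled points passed at an adjusted p under 0.05. Edem1 and Xbp1 stand furthest to the right and Ero1lb furthest to the left in all 3 genotypes, and 18 genes have no filled point.

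Among chaperones and their cofactors, Hspa5 did not pass in any genotype. Hspa5 in KO islets was at 1957, 2020 and 1789 CPM with cytokines, against 1998, 1864 and 1895 CPM untreated. Hspa5 in Het islets was at 1784, 1797 and 1795 CPM with cytokines, against 1968, 1583 and 1777 CPM untreated. Hspa5 in WT islets was at 1749, 1878 and 1800 CPM with cytokines, against 1872, 1772 and 1786 CPM untreated. The groups overlapped in each genotype, and the widest spread was among untreated Het libraries. Its log2 fold change was 0.0024 ± 0.069 in KO, 0.013 ± 0.069 in Het and -0.0009 ± 0.069 in WT islets, with intervals of 2 SE from -0.13 to 0.14, from -0.12 to 0.15 and from -0.14 to 0.14. Hsp90b1, the BiP exchange factor Hyou1, the J-domain cofactors Dnajb9 and Dnajc3, the cofactor Sdf2l1, and the secreted stress proteins Creld2 and Manf did not pass in any genotype either when all 18 libraries were fitted. Their estimates ran from -0.26 for Dnajb9 in Het islets to 0.13 for Hyou1 in Het islets. Without untreated Het replicate 1 the estimate of Dnajb9 in Het islets was -0.10 (adjusted p = 0.338), and that of Hyou1, at 0.26, passed (adjusted p = 0.00636). Dnajb11, the J-domain cofactor ERdj3, rose in WT islets by 0.18 ± 0.051 (adjusted p = 0.0162), and its estimates of 0.12 ± 0.051 in KO and 0.097 ± 0.051 in Het islets did not pass. That call in WT islets was lost without cytokine replicate 2 or without untreated replicate 1 (adjusted p = 0.0572 and 0.0665). The reads of Manf, Hsp90b1 and Dnajb11 are less certain: Manf overlaps Dcaf1 and Rbm15b, Hsp90b1 a pseudogene and Dnajb11 an antisense gene, and the sources used here do not say whether counting used strand. Shorter overlaps with a gene on the other strand were 673 bases for Sec61a1, 535 for Herpud1 and 231 for Derl2, and a few other genes had smaller ones.

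The lectin chaperones hold glycoproteins while they fold, and Calr, the soluble one, rose in every genotype. Calr in KO islets was at 1414, 1408 and 1330 CPM with cytokines, against 1115, 1055 and 1132 CPM untreated. Calr in Het islets was at 1294, 1328 and 1263 CPM with cytokines, against 1121, 938 and 1088 CPM untreated. Calr in WT islets was at 1223, 1317 and 1223 CPM with cytokines, against 973, 989.9 and 1003 CPM untreated. Each of the 9 cytokine libraries was above each of the 9 untreated ones. Its log2 fold change was 0.33 ± 0.061 (adjusted p = 0.000565) in KO, 0.30 ± 0.061 (adjusted p = 0.00153) in Het and 0.34 ± 0.061 (adjusted p = 0.000566) in WT islets. The Het call was lost when only the Het groups were fitted (adjusted p = 0.0578). Canx, the membrane-bound calnexin, had no overlap of groups in any genotype. It rose in KO islets by 0.19 ± 0.044 (adjusted p = 0.00365) and in Het islets by 0.17 ± 0.044 (adjusted p = 0.00831), while its estimate in WT islets was 0.11 ± 0.044 (adjusted p = 0.0766).

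P4hb had the largest rise of the disulfide isomerases, which form and reshuffle disulfide bonds. P4hb in KO islets was at 1907, 1951 and 1864 CPM with cytokines, against 1454, 1288 and 1417 CPM untreated. P4hb in Het islets was at 1689, 1886 and 1725 CPM with cytokines, against 1397, 1237 and 1475 CPM untreated. P4hb in WT islets was at 1650, 1756 and 1744 CPM with cytokines, against 1439, 1316 and 1404 CPM untreated. The lowest cytokine library of all, in WT islets, was above the highest untreated one. On the log2 scale the change was 0.46 ± 0.069 (adjusted p = 8.3e-05) in KO, 0.37 ± 0.068 (adjusted p = 0.000852) in Het and 0.31 ± 0.068 (adjusted p = 0.00329) in WT islets.

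Pdia6, another isomerase, moved less. Pdia6 in KO islets was at 516, 542 and 478 CPM with cytokines, against 421, 401 and 406 CPM untreated. Pdia6 in Het islets was at 451, 476 and 472 CPM with cytokines, against 432, 343 and 389.5 CPM untreated. Pdia6 in WT islets was at 440.3, 456 and 450.4 CPM with cytokines, against 383, 372 and 373 CPM untreated. No cytokine library overlapped an untreated one, although untreated Het replicate 1, at 431.7 CPM, came close to the lowest of them, at 440.3 CPM. edgeR estimated a log2 fold change of 0.32 ± 0.066 (adjusted p = 0.00136) in KO, 0.26 ± 0.066 (adjusted p = 0.00768) in Het and 0.26 ± 0.066 (adjusted p = 0.00902) in WT islets. Pdia3, Pdia4 and Pdia5 did not pass in any genotype when all 18 libraries were fitted, with estimates from 0.041 for Pdia4 in KO islets to 0.16 for Pdia3 in KO islets. Without untreated Het replicate 1, Pdia3 at 0.19 and Pdia4 at 0.17 passed in Het islets (adjusted p = 0.0225 and 0.0308).

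The pair of oxidases that pass disulfides to these isomerases differed from each other. Ero1lb (ERO1β, chr13:12565874-12611396, plus strand, GRCm38), the form enriched in the pancreas, had the largest fall of the 35. Ero1lb in KO islets was at 278, 325 and 291 CPM with cytokines, against 697, 690.3 and 659 CPM untreated. Ero1lb in Het islets was at 279, 277 and 288 CPM with cytokines, against 717, 647 and 486 CPM untreated. Ero1lb in WT islets was at 227, 261 and 259 CPM with cytokines, against 512, 583 and 586 CPM untreated. The cytokine libraries all lay under the untreated ones, at 0.437, 0.456 and 0.444 of the untreated level in KO, Het and WT islets by the fitted folds. This is a log2 fold change of -1.19 ± 0.11 (adjusted p = 5.29e-07) in KO, -1.13 ± 0.11 (adjusted p = 1.31e-06) in Het and -1.17 ± 0.11 (adjusted p = 1.26e-06) in WT islets.

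Ero1l, the more widely expressed ERO1α, did not pass. Ero1l in KO islets was at 115, 111 and 200 CPM with cytokines, against 111, 104 and 106 CPM untreated. Ero1l in Het islets was at 135, 124 and 121 CPM with cytokines, against 108, 101 and 138 CPM untreated. Ero1l in WT islets was at 121, 141 and 136 CPM with cytokines, against 168, 132 and 132 CPM untreated. The KO value of 200 CPM is from cytokine replicate 3 alone, and the other KO libraries lay at 104.0 to 114.6 CPM whatever the treatment. Its log2 fold change was 0.41 ± 0.19 (adjusted p = 0.119) in KO, 0.13 ± 0.19 (adjusted p = 0.678) in Het and -0.12 ± 0.19 (adjusted p = 0.697) in WT islets. Without cytokine replicate 2 the KO estimate was 0.55 with an adjusted p of 0.0459, and over the 16 alternatives the adjusted p ran from 0.0459 to 0.679.

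**Figure D4:**
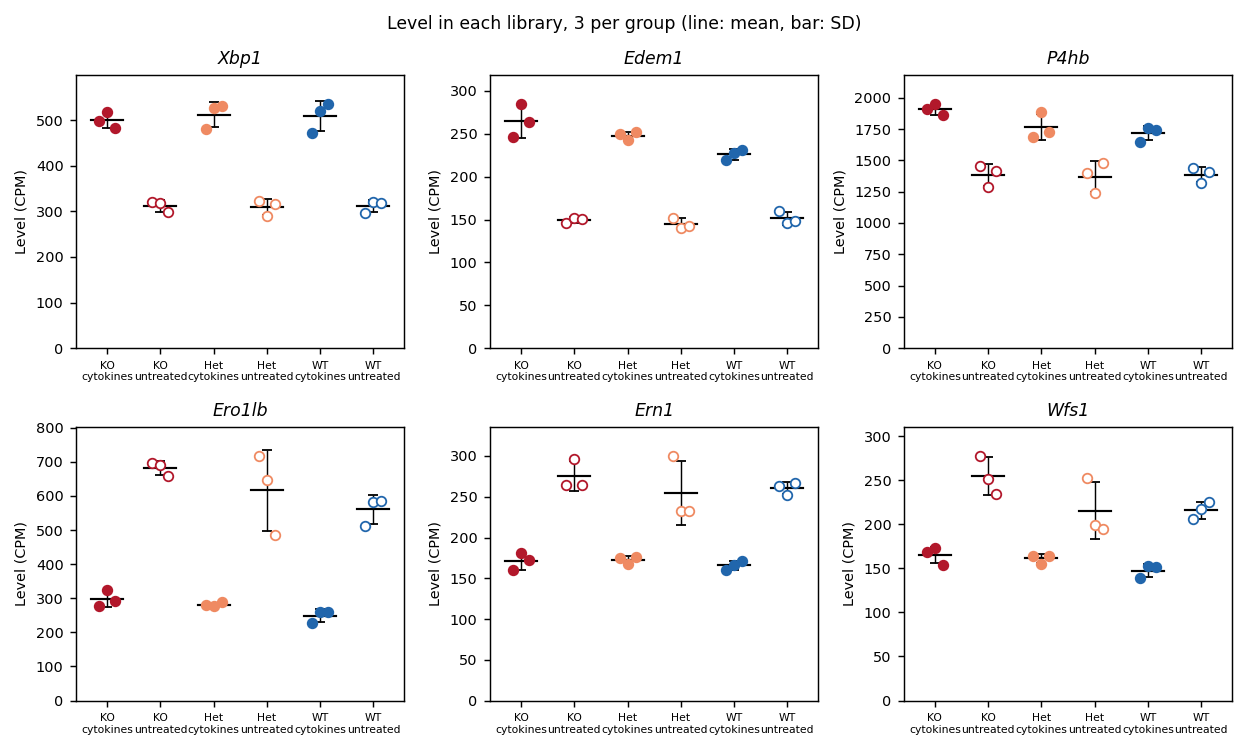
Levels in CPM of 6 genes in each of the 18 libraries, with the mean and SD of each group of 3; filled circles had cytokines and open ones were untreated. Xbp1, Edem1 and P4hb were higher in all 9 cytokine libraries than in all 9 untreated ones, and Ero1lb, Ern1 and Wfs1 were lower.

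The sensor Ern1 and its target Xbp1 went in opposite directions. Ern1 (chr11:106394650-106487852, minus strand) encodes IRE1α, the kinase and nuclease that splices Xbp1 mRNA. Ern1 in KO islets was at 159.7, 180.4 and 173 CPM with cytokines, against 264, 297 and 265 CPM untreated. Ern1 in Het islets was at 175, 167 and 176 CPM with cytokines, against 299.8, 232 and 232 CPM untreated. Ern1 in WT islets was at 159.7, 166 and 171 CPM with cytokines, against 263, 252 and 267 CPM untreated. All cytokine libraries were at or under 180.4 CPM and all untreated ones at or above 232 CPM. On the log2 scale the change was -0.69 ± 0.083 (adjusted p = 9.51e-06) in KO, -0.56 ± 0.083 (adjusted p = 0.000102) in Het and -0.65 ± 0.083 (adjusted p = 2.6e-05) in WT islets.

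Xbp1 (chr11:5520659-5525893, plus strand) encodes the transcription factor that IRE1 activates by splicing, and counts per gene do not tell spliced from unspliced mRNA. Xbp1 in KO islets was at 498, 517 and 483 CPM with cytokines, against 321, 318 and 298 CPM untreated. Xbp1 in Het islets was at 481, 526 and 529.9 CPM with cytokines, against 323, 289 and 317 CPM untreated. Xbp1 in WT islets was at 473, 520.4 and 536 CPM with cytokines, against 297, 321 and 318 CPM untreated. The groups were far apart in each genotype, and the 3 genotypes overlapped within each treatment. edgeR estimated a log2 fold change of 0.68 ± 0.06 (adjusted p = 3.89e-07) in KO, 0.72 ± 0.06 (adjusted p = 2.69e-07) in Het and 0.71 ± 0.06 (adjusted p = 4.85e-07) in WT islets.

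Atf6, the membrane-bound factor that is cut in the Golgi, fell by less than Ern1. Atf6 in KO islets was at 166, 174 and 166 CPM with cytokines, against 210.2, 223 and 203 CPM untreated. Atf6 in Het islets was at 169, 168 and 170.2 CPM with cytokines, against 217, 174 and 182 CPM untreated. Atf6 in WT islets was at 168, 168 and 170 CPM with cytokines, against 204, 213 and 196 CPM untreated. The 9 cytokine libraries lay between 165.7 and 173.8 CPM, just under the lowest untreated one at 174.2 CPM. This is a log2 fold change of -0.33 ± 0.064 (adjusted p = 0.000847) in KO and -0.28 ± 0.064 (adjusted p = 0.00442) in WT islets. The estimate for Het islets, -0.18 ± 0.064 (adjusted p = 0.0554), missed the threshold. In Het islets it passed without untreated replicate 2 or 3 (adjusted p = 0.0149 and 0.0416) and with a block by the number in the sample titles (adjusted p = 0.0397), whereas without untreated replicate 1 it was -0.076 (adjusted p = 0.281). Over the 16 alternatives the adjusted p ran from 0.0149 to 0.281.

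Its relative Atf6b stayed between 82.6 and 104.2 CPM in every library. Atf6b in KO islets was at 96.7, 104 and 91.3 CPM with cytokines, against 104, 101 and 101 CPM untreated. Atf6b in Het islets was at 92.0, 96.8 and 97.8 CPM with cytokines, against 103, 82.6 and 91.0 CPM untreated. Atf6b in WT islets was at 91.7, 90.0 and 94.5 CPM with cytokines, against 83.9, 90.8 and 95.4 CPM untreated. The groups overlapped in each genotype, with log2 fold changes of -0.069 ± 0.069, 0.051 ± 0.069 and 0.033 ± 0.07 in KO, Het and WT islets (adjusted p = 0.496, 0.653 and 0.775).

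Wfs1 (chr5:36966104-36989205, minus strand) encodes wolframin, an ER membrane protein whose loss in humans causes Wolfram syndrome, with diabetes. Wfs1 in KO islets was at 168, 173 and 154 CPM with cytokines, against 277, 251 and 235 CPM untreated. Wfs1 in Het islets was at 164, 155 and 164 CPM with cytokines, against 253, 199 and 194 CPM untreated. Wfs1 in WT islets was at 139, 153 and 151 CPM with cytokines, against 206, 218 and 225 CPM untreated. Every cytokine library was lower than every untreated one. Its log2 fold change was -0.62 ± 0.087 (adjusted p = 4.58e-05) in KO, -0.42 ± 0.087 (adjusted p = 0.00219) in Het and -0.55 ± 0.087 (adjusted p = 0.000214) in WT islets.

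Of the 9 genes of ER-associated degradation, Edem1 moved most, with the largest rise of all 35 genes in KO and Het islets and the second largest, after Xbp1, in WT islets. It encodes a mannosidase-like protein that delivers misfolded glycoproteins for degradation (chr6:108828641-108859356, plus strand). Edem1 in KO islets was at 246, 285 and 263 CPM with cytokines, against 146, 152 and 151 CPM untreated. Edem1 in Het islets was at 249, 243 and 252 CPM with cytokines, against 152, 140.2 and 142 CPM untreated. Edem1 in WT islets was at 219, 227 and 232 CPM with cytokines, against 160.3, 146 and 148 CPM untreated. Untreated ranges of the 3 genotypes overlapped, and the 3 WT cytokine libraries were the lowest of the 9 with cytokines. On the log2 scale the change was 0.83 ± 0.054 (adjusted p = 1.4e-08) in KO, 0.77 ± 0.054 (adjusted p = 3.75e-08) in Het and 0.58 ± 0.053 (adjusted p = 1.17e-06) in WT islets, or 1.77-, 1.71- and 1.49-fold.

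Sel1l encodes the adaptor that holds the ubiquitin ligase of this pathway, and it fell while the ligase gene Syvn1 did not pass. Sel1l in KO islets was at 136, 144 and 147 CPM with cytokines, against 177, 186 and 181 CPM untreated. Sel1l in Het islets was at 147, 138 and 139 CPM with cytokines, against 178, 161 and 148 CPM untreated. Sel1l in WT islets was at 142, 146 and 138 CPM with cytokines, against 167, 184 and 174 CPM untreated. The highest cytokine library, at 147.0 CPM, was just under the lowest untreated one, at 148.0 CPM. edgeR estimated a log2 fold change of -0.35 ± 0.059 (adjusted p = 0.000263) in KO, -0.20 ± 0.059 (adjusted p = 0.02) in Het and -0.30 ± 0.059 (adjusted p = 0.00132) in WT islets. In Het islets the call was lost without untreated replicate 1 (-0.13, adjusted p = 0.096), and also without cytokine replicate 2 or 3 (adjusted p = 0.0697 and 0.0679). Syvn1 had estimates of -0.037, 0.058 and 0.068 in KO, Het and WT islets.

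Edem2, a relative of Edem1 in the same pathway, rose in KO and Het islets. Edem2 in KO islets was at 266, 292 and 246 CPM with cytokines, against 239, 237 and 219.5 CPM untreated. Edem2 in Het islets was at 234, 273 and 264 CPM with cytokines, against 230.2, 211 and 198 CPM untreated. Edem2 in WT islets was at 236, 265 and 260.1 CPM with cytokines, against 232, 221 and 243 CPM untreated. The groups overlapped only in WT islets. This is a log2 fold change of 0.21 ± 0.076 (adjusted p = 0.0464) in KO, 0.27 ± 0.076 (adjusted p = 0.0164) in Het and 0.13 ± 0.076 (adjusted p = 0.244) in WT islets. Its KO call was lost without any of 4 of the 6 KO libraries (cytokine replicates 1 and 2, untreated replicates 2 and 3; adjusted p = 0.077 to 0.206). The Het call was lost without cytokine replicate 2 or 3 or untreated replicate 2 or 3 (adjusted p = 0.0523 to 0.0767).

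Derl1, a derlin of the ER membrane through which substrates leave, fell by a small amount. Derl1 in KO islets was at 144, 155 and 143 CPM with cytokines, against 169, 163 and 162 CPM untreated. Derl1 in Het islets was at 138, 141 and 139.7 CPM with cytokines, against 170.1, 149.8 and 144 CPM untreated. Derl1 in WT islets was at 133, 140.3 and 136 CPM with cytokines, against 149, 154 and 153 CPM untreated. The groups did not overlap within a genotype. Its log2 fold change was -0.16 ± 0.053 (adjusted p = 0.0322) in KO and -0.16 ± 0.053 (adjusted p = 0.0391) in WT islets, which passed, and -0.15 ± 0.053 (adjusted p = 0.0549) in Het islets. The WT call was lost without any 1 of the 6 WT libraries (adjusted p = 0.0569 to 0.131). The KO call was lost without cytokine replicate 1 or 3 or untreated replicate 1 or 2 (adjusted p = 0.0619 to 0.155). Without the low-count filter neither passed (adjusted p = 0.0751 in KO and 0.0794 in WT islets). With only the KO groups fitted, the KO call was lost (adjusted p = 0.0868). Herpud1, a stress-induced partner of the ligase, the lectin Os9, Derl2 and Derl3 did not pass in any genotype when all 18 libraries were fitted.

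The Sec61 channel consists of 3 subunits, of which the small γ subunit rose in all genotypes. Sec61g in KO islets was at 152, 158 and 144 CPM with cytokines, against 128, 106 and 115 CPM untreated. Sec61g in Het islets was at 126, 138 and 130.3 CPM with cytokines, against 114, 95.6 and 115 CPM untreated. Sec61g in WT islets was at 127, 128 and 127 CPM with cytokines, against 96.1, 90.1 and 111 CPM untreated. Within each genotype the groups did not overlap. On the log2 scale the change was 0.38 ± 0.084 (adjusted p = 0.00243) in KO, 0.28 ± 0.084 (adjusted p = 0.0226) in Het and 0.36 ± 0.084 (adjusted p = 0.00435) in WT islets, and the Het call was lost without cytokine replicate 2 or 3 or untreated replicate 2 (adjusted p = 0.0531 to 0.118). Sec61b passed in KO islets at 0.20 ± 0.07 (adjusted p = 0.0422), against 0.091 ± 0.07 in Het and 0.18 ± 0.07 in WT islets, and was lost there without cytokine replicate 1 or 2 or untreated replicate 2 or 3 (adjusted p = 0.108 to 0.136). Sec61a1, the pore subunit, passed in WT islets at 0.15 ± 0.05 (adjusted p = 0.0396), against 0.11 ± 0.05 in KO and 0.099 ± 0.05 in Het islets, and was lost without any 1 of the 6 WT libraries (adjusted p = 0.0579 to 0.15).

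Some responses depended on which libraries or which test was used. Among the Het calls lost when only the Het groups were fitted were those of Calr, Sec61g, Edem2 and Sel1l. Their adjusted p in that fit was 0.0578, 0.0659, 0.0728 and 0.14. In Het islets without untreated replicate 1 the rises were 0.81 for Edem1, 0.76 for Xbp1, 0.38 for P4hb, 0.36 for Calr, 0.35 for Pdia6, 0.33 for Edem2, 0.32 for Sec61g and 0.22 for Canx on the log2 scale. The falls were -1.01 for Ero1lb, -0.43 for Ern1 and -0.29 for Wfs1, so that Sel1l was the one call lost. Os9 passed there at 0.18 (adjusted p = 0.0126), beside Hyou1, Pdia3 and Pdia4 as given above. Over the 16 alternatives each of these 4 genes also passed in Het islets with limma and without the 2 libraries of lowest quality weight, and Os9 with DESeq2. Dnajb9 passed as lower in 3 alternatives in KO, 4 in Het and 3 in WT islets, and in Het islets its log2 fold change ran from -0.34 to -0.10 over the 16 (adjusted p = 0.0291 to 0.338). Pdia3 passed as higher in 5 in KO and 1 in WT islets, Canx in 4 and Sec61b in 5 in WT islets, and Derl3 and Herpud1 passed as lower in 3 and 2 in KO islets.

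Set against the promoter elements, 3 of the 11 genes with an ERSE or ERSE-II match rose with cytokines in KO islets and none fell, and the same numbers held in Het and in WT islets. Of the 17 genes whose window held neither, 6 rose and 3 fell in KO, 5 and 3 in Het, and 4 and 3 in WT islets. Xbp1, Edem1, P4hb, Ern1 and Wfs1 are among these 17. The median log2 fold changes of the 11 were 0.0024, 0.02 and 0.01 in KO, Het and WT islets, and those of the 17 were 0.06, 0.09 and 0.09. Ero1lb and Atf6 are named only, without a window.

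Levels of other cells' markers moved with the cytokines in the same libraries. The summed level of 8 duct markers was 2993 to 3905 CPM with cytokines and 1313 to 1884 CPM untreated in KO islets, and 3639 to 6666 CPM with cytokines and 1791 to 2805 CPM untreated in WT islets. In Het islets it was 3462 to 4558 CPM with cytokines and 1643 to 4883 CPM untreated. The sum of 9 alpha cell markers was 8758 to 13010 CPM with cytokines and 14290 to 19500 CPM untreated in KO, 8984 to 10070 CPM with cytokines and 12920 to 19120 CPM untreated in Het, and 7316 to 9831 CPM with cytokines and 11180 to 15440 CPM untreated in WT islets. The beta sums overlapped in KO and Het islets, at 162200 to 205000 and 154400 to 183200 CPM with cytokines against 188000 to 233600 and 164000 to 201500 CPM untreated, but not in WT islets, at 144400 to 163400 against 167100 to 192700 CPM. The sum of 5 delta cell markers was 4176 to 5685 CPM with cytokines and 5719 to 7893 CPM untreated in KO, 4242 to 4762 CPM with cytokines and 5274 to 7188 CPM untreated in Het, and 3922 to 4992 CPM with cytokines and 5076 to 7246 CPM untreated in WT islets. The sum of 12 mesenchymal markers was 541.1 to 1920 CPM with cytokines and 1634 to 3816 CPM untreated in KO, 506.6 to 1211 CPM with cytokines and 1123 to 3148 CPM untreated in Het, and 797.2 to 1449 CPM with cytokines and 1703 to 1916 CPM untreated in WT islets. That of 12 macrophage markers was 245.3 to 313.5 CPM with cytokines and 159.6 to 418.5 CPM untreated in KO, 319.5 to 412.8 CPM with cytokines and 145.5 to 328.2 CPM untreated in Het, and 323.4 to 572.5 CPM with cytokines and 180.4 to 217.3 CPM untreated in WT islets. With cytokines the alpha and delta sums lay below the untreated range in every genotype, and in WT islets alone the mesenchymal sums lay below it and the macrophage sums above it. None of these markers was at 0 in any library, and their part in the ER gene results was not tested. Some sums rest largely on few genes. Over the 18 libraries the duct marker Spp1 ran from 568.3 to 5752 CPM and the macrophage marker Cd14 from 18.43 to 395.5 CPM. Ins1 and Ins2, at 38350 to 62650 and 87650 to 148400 CPM, made up most of each beta sum. Gcg, at 6957 to 18640 CPM, made up most of each alpha sum, and Sst, at 3765 to 7659 CPM, most of each delta sum. A sum from whole islets does not tell apart fewer cells of a type, less RNA per cell and a change in few genes.

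The second question is whether islets without ZnT8 differed from wild type in this machinery. The estimate of KO against WT was above 0 for most of the 35 genes under both treatments, but few passed. With cytokines Dnajb9, Sdf2l1, Derl2, Edem1 and Pdia3 were higher in KO than WT islets and none was lower, where 5.33% of all genes passed, 1.52% higher and 3.80% lower. Untreated, Dnajb9 alone was higher and none was lower, where 2.94% of all genes passed, 0.534% higher and 2.40% lower. The estimate was above 0 for 33 of the 35 genes with cytokines and for 31 untreated, and for 28 to 35 and 30 to 33 over the other scalings, tests and left-out libraries. The median log2 difference was 0.12 in both treatments, against 0.00 over all genes. The 3 KO libraries lay above the 3 WT libraries for 20 of the 35 genes with cytokines, where 14.5% of all genes did, and for 21 untreated, where 11.0% did. They lay below them for none of the 35 with cytokines, where 16.0% of all genes did, and for Ero1l alone untreated, where 14.7% did. Groups were apart in either direction for 30.5% of all genes with cytokines and 25.7% untreated. The same WT libraries serve as reference for every gene, so these are counts of genes and not of independent samples.

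**Figure D5:**
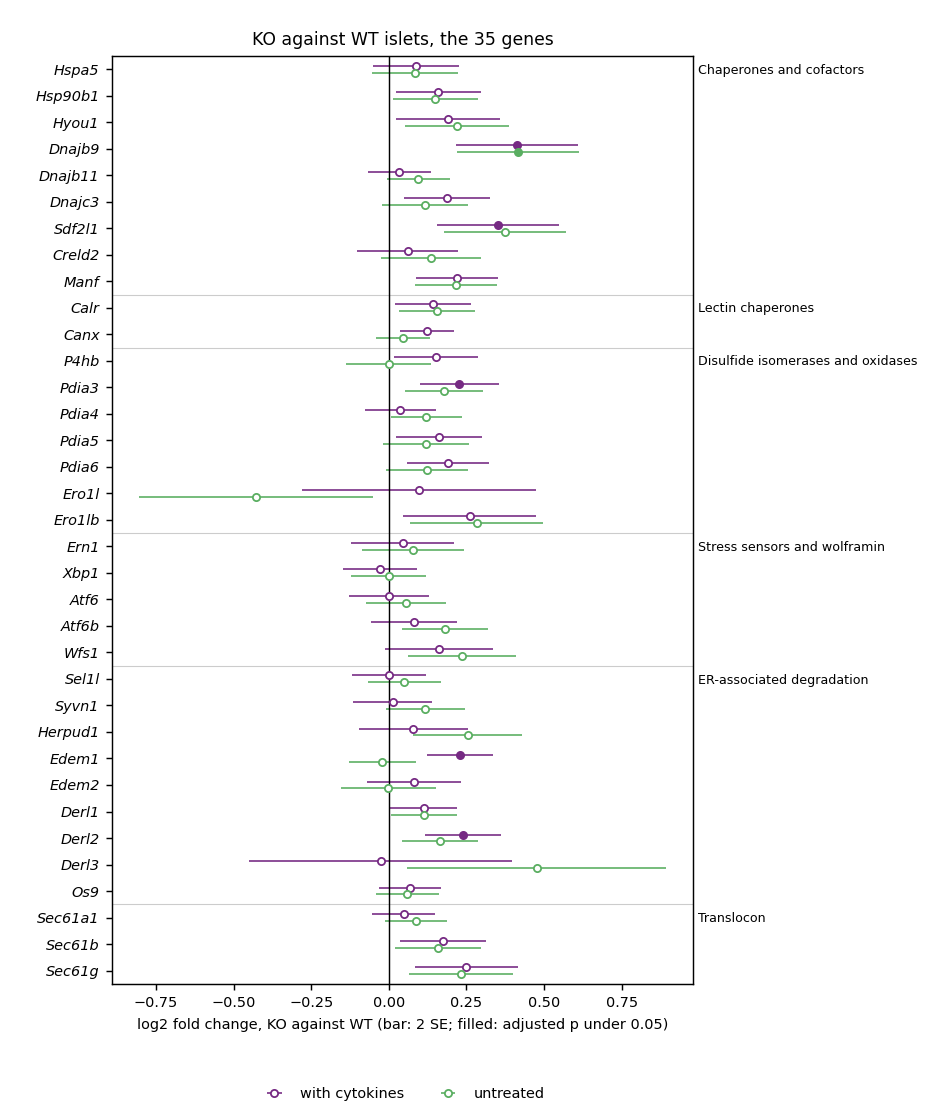
Log2 fold change of KO against WT islets for each of the 35 genes, with cytokines and untreated, with bars of 2 standard errors (3 libraries per group); filled points passed at an adjusted p under 0.05. Most points lie between 0 and 0.30, Dnajb9 at 0.41 is filled in both treatments, and Ero1l untreated, at -0.43, is the only estimate under -0.10.

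Dnajb9 (chr12:44205559-44210326, minus strand) encodes ERdj4, a J-domain cofactor of BiP that is itself a target of the unfolded protein response. With cytokines it was at 252, 272 and 228 CPM in KO and 212, 215 and 214 CPM in Het islets, against 188, 194 and 182 CPM in WT islets. Untreated it was at 286, 318 and 273 CPM in KO and 310, 229 and 230.5 CPM in Het islets, against 233, 217 and 208 CPM in WT islets. The KO libraries were above the WT libraries in both treatments, and with cytokines the Het libraries lay between them. The log2 difference of KO from WT was 0.41 ± 0.098 (adjusted p = 0.0259) with cytokines and 0.41 ± 0.098 (adjusted p = 0.0344) untreated, or 1.33-fold in both. With cytokines the call was lost without any 1 of 5 of the 6 libraries, all but KO replicate 3 (adjusted p = 0.0649 to 0.137). Untreated it was also lost without any 1 of 5, again all but KO replicate 3 (adjusted p = 0.0799 to 0.135).

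Sdf2l1 (chr16:17130138-17132383, minus strand) encodes a protein that joins ERdj3 in keeping unfolded chains soluble. With cytokines it had 142, 142 and 122 CPM in KO and 108, 109 and 115 CPM in Het islets, against 96.8, 118 and 103 CPM in WT islets. Untreated it had 143, 135 and 131 CPM in KO and 129.5, 95.3 and 111 CPM in Het islets, against 98.0, 106 and 111 CPM in WT islets. KO and WT libraries did not overlap in either treatment, and untreated Het replicate 1 lay near the KO libraries. The log2 difference of KO from WT was 0.35 ± 0.098 (adjusted p = 0.0487) with cytokines, and 0.37 ± 0.098 (adjusted p = 0.0511) untreated, just short of the threshold. The call with cytokines was lost without KO replicate 1 or 2 or WT replicate 1 or 3 (adjusted p = 0.111 to 0.197). It was also lost with the replicate block shared over all groups, by the number in the descriptions (adjusted p = 0.0744) or in the titles (adjusted p = 0.0522). Further losses came when only the groups compared were fitted (adjusted p = 0.0737) and without the low-count filter (adjusted p = 0.0574).

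Edem1 with cytokines was higher in KO than WT islets by 0.23 ± 0.053 (adjusted p = 0.0227), and in untreated islets its difference was -0.021 ± 0.053. The call was lost without KO replicate 2 or WT replicate 1 or 2 (adjusted p = 0.0631 to 0.134). It was also lost when only the groups compared were fitted (adjusted p = 0.0678). Derl2, a derlin, had 79.2, 82.5 and 77.2 CPM in KO and 66.9, 67.9 and 72.8 CPM in Het islets with cytokines, against 68.9, 67.2 and 66.3 CPM in WT islets. Untreated it had 79.8, 78.6 and 70.2 CPM in KO and 79.5, 74.9 and 67.8 CPM in Het islets, against 70.2, 65.3 and 68.4 CPM in WT islets. With cytokines the KO libraries stood above both other genotypes, and untreated the groups overlapped. The log2 difference of KO from WT was 0.24 ± 0.061 (adjusted p = 0.0345) with cytokines and 0.16 ± 0.061 (adjusted p = 0.169) untreated.

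Pdia3, which encodes ERp57, the isomerase that works with the lectin chaperones, had 1344, 1409 and 1267 CPM in KO and 1174, 1245 and 1182 CPM in Het islets with cytokines, against 1135, 1168 and 1132 CPM in WT islets. Untreated it had 1231, 1179 and 1182 CPM in KO and 1224, 1043 and 1059 CPM in Het islets, against 1100, 988 and 1087 CPM in WT islets. The KO libraries were above the WT libraries in both treatments. The log2 difference of KO from WT was 0.23 ± 0.064 (adjusted p = 0.0492) with cytokines and 0.18 ± 0.064 (adjusted p = 0.15) untreated. The calls of Derl2 and Pdia3 were each lost without any 1 of 5 of the 6 libraries, all but KO replicate 3 (adjusted p = 0.0782 to 0.158 and 0.0973 to 0.22). The call of Pdia3 was also lost with the replicate block shared over all groups, by the number in the descriptions (adjusted p = 0.0628) or in the titles (adjusted p = 0.0663). Fitting only the groups compared ended it too (adjusted p = 0.0513).

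Manf, Wfs1 and Hyou1 had untreated KO libraries above all WT ones as well, with log2 differences of 0.22 ± 0.066, 0.24 ± 0.087 and 0.22 ± 0.083 that did not pass (adjusted p = 0.0933, 0.164 and 0.175). Ero1l, whose untreated KO libraries all lay below the WT ones, had a log2 difference of -0.43 ± 0.19 (adjusted p = 0.247) untreated and 0.098 ± 0.19 (adjusted p = 0.796) with cytokines. Hspa5 differed by 0.087 ± 0.069 (adjusted p = 0.464) with cytokines and 0.084 ± 0.069 (adjusted p = 0.563) untreated, and Ero1lb by 0.26 ± 0.11 (adjusted p = 0.155) with cytokines and 0.28 ± 0.11 (adjusted p = 0.174) untreated. Without untreated Het replicate 1 and untreated KO replicate 3, an alternative chosen after seeing the data, 7 genes were higher in untreated KO than WT islets: Hyou1, Dnajb9, Sdf2l1, Manf, Herpud1, Derl2 and Wfs1. Their log2 differences were then 0.22 to 0.46, where 7.19% of all genes passed. With cytokines 10 were higher in the same fit, where 11.4% of all genes passed. Of the 11 genes with an ERSE or ERSE-II match none passed for KO against WT in either treatment in the fit of all 18 libraries, and of the 17 with neither 5 passed with cytokines and 1 untreated.

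Markers of several cell types differed between KO and WT islets in the same libraries. The summed level of 30 acinar markers was 878.8 to 1977 CPM in KO, 3096 to 4773 CPM in Het and 6318 to 11910 CPM in WT islets with cytokines. Untreated it was 1764 to 2715 CPM in KO, 3237 to 4867 CPM in Het and 8902 to 9195 CPM in WT islets. Up to 3 of the 30 markers were at 0 in a KO library and up to 1 in a Het or WT library. Beta sums with cytokines were 162200 to 205000 CPM in KO against 144400 to 163400 CPM in WT islets, and untreated 188000 to 233600 against 167100 to 192700 CPM, so that the ranges overlapped in both. Of the 12 beta markers 11 had a positive KO against WT estimate in each treatment, with a median of 0.43 with cytokines and 0.37 untreated on the log2 scale, and KO libraries lay wholly above WT libraries for 7 with cytokines and 8 untreated. The beta list includes Slc30a8, the gene knocked out, which was lower in KO islets and is the 1 marker without a positive estimate. All 9 alpha markers had positive estimates in both, with a median of 0.31 with cytokines and 0.39 untreated, and 5 lay wholly above in each. The alpha sums given above overlapped between KO and WT islets in both treatments. Of the 8 duct markers 3 passed as lower with cytokines and 2 untreated, with a median estimate of -1.11 and -0.77. The sum of 12 macrophage markers with cytokines was 245.3 to 313.5 CPM in KO against 323.4 to 572.5 CPM in WT islets. Untreated it was 159.6 to 418.5 against 180.4 to 217.3 CPM. The sum of 10 endothelial markers was 207.9 to 348.4 CPM in KO against 447.1 to 683 CPM in WT islets with cytokines, and 298.4 to 447.2 against 522.8 to 682.4 CPM untreated. Their part in the ER gene differences was not tested.

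Between Het and WT islets none of the 35 genes passed edgeR's test, where 0.00569% of all genes passed untreated and 0% with cytokines. The Het libraries lay wholly above the WT libraries for 7 of the 35 with cytokines and 0 untreated, where 7.71% and 3.46% of all genes did. They lay wholly below for 1 with cytokines and 0 untreated, where 8.16% and 7.24% did, and in either direction 15.9% and 10.7% of all genes did. DESeq2 and limma also called none, as did edgeR without untreated Het replicate 1, where 0.0112% of all genes passed untreated, and 1 gene in each treatment had an unadjusted p under 0.05. The untreated estimate was above 0 for 22 of the 35 with all libraries and for 8 without untreated Het replicate 1. The genes with an unadjusted p under 0.05 were Edem1 with cytokines, at 0.13 ± 0.053 (adjusted p = 0.662), and Dnajb9 untreated, at 0.22 ± 0.098 (adjusted p = 0.67), which was 0.065 without untreated Het replicate 1 (adjusted p = 0.732). The next in order were Derl3 with cytokines at -0.43 ± 0.21 and Derl2 untreated at 0.12 ± 0.061. Derl3 with cytokines had 4.92, 5.43 and 4.68 CPM in Het against 5.50, 9.18 and 5.56 CPM in WT islets. Those groups did not overlap, but WT replicate 2 lay well above the other WT libraries.

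Between KO and Het islets none of the 35 genes passed edgeR's test on all 18 libraries, where 0.00569% of all genes passed with cytokines and 0% untreated. Unadjusted p-values under 0.05 were found for 8 of the 35 with cytokines and 9 untreated, DESeq2 called none, and limma called 1 with cytokines, Manf, and 20 untreated. The KO libraries lay wholly above the Het libraries for 13 of the 35 with cytokines and 2 untreated, where 6.37% and 5.07% of all genes did. They lay wholly below for none, where 7.83% and 6.32% did, and in either direction 14.2% and 11.4% of all genes did. The smallest with cytokines were those of Derl2, at 0.20 ± 0.061 (adjusted p = 0.411), and Sdf2l1, at 0.29 ± 0.098 (adjusted p = 0.47). Untreated they were those of Sdf2l1, at 0.28 ± 0.098 (adjusted p = 0.225), and Derl3, at 0.58 ± 0.21 (adjusted p = 0.235). Untreated, Derl3 had 9.40, 10.8 and 7.80 CPM in KO and 8.05, 5.70 and 4.92 CPM in Het islets, against 7.55, 7.11 and 5.46 CPM in WT islets, and the highest Het library, replicate 1, was above the lowest KO one.

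Untreated Het replicate 1 set the count in the untreated comparison of KO with Het islets. Without it 18 of the 35 genes were higher in KO than Het islets and none was lower, where 10.3% of all genes passed. They include the chaperones Hsp90b1, Hyou1, Dnajb9, Dnajc3, Sdf2l1, Creld2 and Manf, the isomerases Pdia3 and Pdia4, the sensors Ern1, Atf6 and Atf6b, and Wfs1. The degradation genes Sel1l, Syvn1, Derl1, Derl3 and Os9 complete the 18. Wfs1 then differed by 0.37 on the log2 scale (adjusted p = 0.0068), against 0.24 with all libraries (adjusted p = 0.241), and its adjusted p ran from 0.00199 to 0.797 over the alternatives. Hyou1 then differed by 0.31 (adjusted p = 0.00856), with a range of 0.00575 to 0.848. Limma with sample quality weights, which gives that library little weight, is the test that called 20 of the 35, all higher in KO islets, where 13% of all genes passed. KO against Het and KO against WT share the KO libraries, so these differences are not independent of those above. Replicate 1 was the highest untreated Het library for 31 of the 35 genes, so leaving it out raises their differences by construction. Estimates were then above 0 for 34 of the 35, with a median of 0.19. Without untreated Het replicate 2 or 3 they were above 0 for 27 and 33, with medians of 0.06 and 0.09. The fit without untreated Het replicate 1 rests on Het replicates 2 and 3, whose duct sums lay above every untreated KO and WT library. The part of this in the 18 calls was not tested.

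The third question is whether the cytokine response itself depended on genotype. None of the 35 interactions passed edgeR's test: 0.0114% of all genes did for KO minus WT (0.00569% in each direction), 0% for Het minus WT and 0% for KO minus Het. DESeq2 and limma called none of the 35 either, and an unadjusted p under 0.05 was found for 1, 1 and 0 of them. Without untreated Het replicate 1 none passed for Het minus WT or KO minus Het, where 0% and 0.0223% of all genes did. Edem1 had the smallest p of the 35 for KO minus WT, with a response larger by 0.25 ± 0.075 on the log2 scale (unadjusted p = 0.00457, adjusted p = 0.456), and for Het minus WT, by 0.20 ± 0.075 (unadjusted p = 0.0186, adjusted p = 0.881). Both are set against the same WT libraries. The second smallest were Ero1l for KO minus WT, at 0.53 ± 0.27, which holds the high KO library named above, and Edem2 for Het minus WT, at 0.14 ± 0.11. For KO minus Het they were Derl2 at 0.16 ± 0.086 and Sel1l at -0.15 ± 0.083, with adjusted p = 0.871 and 0.874. For the genes that moved most, the interval of the KO minus WT difference was -0.33 to 0.28 for Ero1lb, -0.20 to 0.14 for Xbp1, -0.27 to 0.20 for Ern1 and -0.32 to 0.17 for Wfs1. These intervals are of 2 SE and are not adjusted for the number of genes tested. With 3 libraries per group they do not give the smallest difference that could pass. That of Edem1, 0.098 to 0.40, lay above 0 and did not pass.

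Further genes of the same machinery were counted from 7 lists outside the 35, 133 genes in all, and the shares of all genes that passed with cytokines, 31.3% in KO, 24.5% in Het and 25.7% in WT islets, apply to each count. Of 16 BiP cofactors and other ER chaperones, 5 rose and 1 fell with cytokines in KO, 2 and 2 in Het, and 4 and 2 in WT islets. Dnajc10, a reductase with a J domain, rose in all 3 genotypes (0.36 in KO, 0.26 in Het and 0.23 in WT islets), and Pofut2, which adds O-fucose, fell in all 3 (-0.34, -0.28 and -0.27). Sdf2 and the cyclophilin Ppib rose in KO and WT islets (0.33 and 0.29, and 0.27 and 0.30).

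Of 18 further disulfide oxidoreductases, 4 rose and 2 fell in KO, 2 and 3 in Het, and 4 and 2 in WT islets. Qsox2, a sulfhydryl oxidase, had the largest rise, 0.74 ± 0.076 (adjusted p = 1.73e-06) in KO, 0.80 ± 0.076 (adjusted p = 1.08e-06) in Het and 0.54 ± 0.075 (adjusted p = 6.75e-05) in WT islets. Txndc16 fell in all 3 (-0.67, -0.56 and -0.82), and Vkorc1, the vitamin K epoxide reductase, fell in KO and Het islets (-0.66 and -0.38). Erp44 rose in KO and WT islets (0.28 and 0.22). Pdia2, the isomerase typical of acinar cells, was lower in KO than WT islets, with log2 differences of -2.74 ± 0.36 (adjusted p = 0.00141) with cytokines and -2.38 ± 0.35 (adjusted p = 0.00434) untreated, in the libraries whose acinar sums differ as given above.

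Of 13 genes of glycan trimming, 2 rose and 1 fell in KO, 4 and 1 in Het, and 1 and 2 in WT islets. The mannosidase Man1a2 rose in all 3 (0.32, 0.31 and 0.26), and its relative Man1a fell in KO and WT islets (-0.30 and -0.34). Of 27 further degradation genes, 6 rose and 2 fell in each genotype. Rhbdd1, a rhomboid protease, fell by the most (-0.65 in KO, -0.52 in Het and -0.58 in WT islets), March6, another ligase of the ER membrane, also fell in all 3 (-0.29, -0.27 and -0.33), and Ubac2 rose (0.42, 0.21 and 0.26).

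Of 34 genes of the translocon, signal peptidase and oligosaccharyltransferase, which insert, cleave and glycosylate new proteins, 14 rose and none fell in KO islets, 7 rose and none fell in Het, and 5 rose and 1 fell in WT islets. Dad1 and Tmem258, oligosaccharyltransferase subunits, rose in all 3 (0.41, 0.34 and 0.30, and 0.36, 0.29 and 0.31). None of the 34 had a cytokine response that differed between genotypes past the threshold (unadjusted p under 0.05 for 1 in KO minus WT, 0 in Het minus WT and 1 in KO minus Het). With cytokines 8 of the 34 were higher in KO than WT islets and none was lower, from 0.24 for Ssr3 to 0.35 for the signal peptidase genes Sec11c and Spcs3, while untreated none passed. Of all genes 1.52% were higher and 3.80% lower with cytokines, and 0.534% higher and 2.40% lower untreated. The median difference of the 34 was 0.18 with cytokines and 0.13 untreated, against 0.00 over all genes in both. Lists given above had fewer calls for KO against WT. With cytokines 1 of the 16 chaperones was higher and 0 of the 13 glycan trimming genes passed. Among the 18 oxidoreductases 1 was higher and 1 lower, as among the 27 further degradation genes. Medians with cytokines were 0.10 for the 16, 0.07 for the 18, 0.10 for the 13 and 0.04 for the 27.

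Of 8 tested genes for processing of the sensors, 1 rose and 2 fell in KO, 2 rose and 1 fell in Het, and 2 rose and 1 fell in WT islets. Traf2, an adaptor that binds active IRE1, rose in all 3 (0.51, 0.46 and 0.43), and Creb3l2, a transcription factor cut like ATF6, fell in all 3 (-0.26, -0.21 and -0.23). Of 16 genes of the PERK, ATF4 and CHOP branch, 3 rose and 9 fell in each genotype, with Chac1 lowest at -1.97, -1.66 and -1.53 in KO, Het and WT islets. The PERK gene Eif2ak3 was lower in KO than WT islets, with log2 differences of -0.34 ± 0.06 (adjusted p = 0.00526) with cytokines and -0.38 ± 0.06 (adjusted p = 0.00434) untreated.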

How the data were processed

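RNA of 18 islet libraries was measured, 3 in each of 6 groups. Per the submitters' processing notes, FastQC 0.11.7, cutadapt 1.16, STAR 2.5.2a, featureCounts 1.6.2, DESeq2 1.30.0 and genome build GRCm38 were used, with no roles given. The authors deposited raw counts of reads per gene for 55536 genes, and a second deposited table holds counts for 25253 of them and served as an alternative gene set. The sources used here do not say whether counting used strand.

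From the full table, genes were kept by edgeR's filterByExpr (count minimum 10, 17590 genes) and scaled by TMM. edgeR's robust quasi-likelihood model (4.0.16, R 4.3.3) took all 18 libraries and 6 group means, leaving 12 residual degrees of freedom; the median biological coefficient of variation was 0.106. P-values were adjusted by Benjamini-Hochberg over all 17590 genes in each of 12 comparisons, and a gene passed at an adjusted p under 0.05. Log2 fold changes are given ± SE. The procedure was tested on simulated counts. CPM used effective library sizes. Lengths came from the GENCODE M21 exon union, and promoter windows from RefSeq. Figures used Python 3.11.15 and matplotlib 3.10.9.

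The 35 genes, their roles, the 7 further ER lists and the marker lists of 10 cell types were chosen with earlier results of these data known. Values in every library are given for up to 6 higher and 6 lower genes of largest change per cytokine comparison, up to 5 that passed per genotype comparison or otherwise the 2 of smallest p, the sensors, Xbp1, both Ero1 genes, Hspa5 and Wfs1. Further lists are given with up to 4 genes each. Genes named beyond this were chosen after their values were seen. Alternatives were DESeq2's RLE scaling, testing without a low-count filter, the authors' filtered gene set, fits of only the groups compared, DESeq2 1.42.0, limma 3.58.1 (voom with quality weights), 2 kinds of replicate block, and leaving out each library. Leaving out the 2 libraries of lowest weight and a block by the number in the sample titles were added after seeing the data. The libraries held 22990164 to 29946680 reads. Gene coordinates are those of GRCm38.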

Additional observations from a re-analysis of the deposited data

How the results depend on the processing

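No value that passed turned its direction under the alternatives. The counts of the 35 genes that passed moved by over 1.5 times as follows. For KO against WT untreated, 1 became 2 with RLE size factors and with the authors' filtered gene set, 4 when only the groups compared were fitted, 3 with DESeq2, 10 with limma and 7 without the 2 libraries of lowest quality weight (untreated Het replicate 1 and untreated KO replicate 3), where 5.22%, 9.98% and 7.19% of all genes passed in these last 3. For KO against WT with cytokines, 5 became 3 when only those groups were fitted, 9 with DESeq2, 15 with limma and 10 without the 2 libraries, where 8.87%, 23.1% and 11.4% of all genes passed in these last 3. For KO against Het, 0 became 20 with limma and 18 without the 2 libraries untreated, where 13% and 17% of all genes passed, and 1 with limma with cytokines, where 0.87% did. For cytokines in Het islets, 12 became 6 when only those groups were fitted. Leaving out 1 library gave 12 to 16 for cytokines in KO islets, 9 to 15 in Het and 11 to 13 in WT, 0 to 1 and 0 to 6 for KO against WT untreated and with cytokines, 0 to 18 for KO against Het untreated, and 0 to 0 for the other comparisons. Where a count stands here without the share of all genes in the same fit, it was not set against that share. Its move is therefore not read as one of the 35 genes in particular. The cause of these moves was not tested. Derl3, with 127 to 267 reads per library, is the gene most limited by depth.

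Same-numbered libraries of the 2 treatments had correlations of -0.219 to 0.392, 6 of 9 over 0.1. Those of different number ran from -0.437 to 0.361. Of the 18 libraries 12 correlated best with their own number, out of 3 candidates each. This does not settle whether the numbers mark pairs, and the labels do not say. The main test did not pair them, and blocks by number served as alternatives. The block used the replicate number of the labels' descriptions, whereas the sample titles number the Het libraries 1, 2 and 4 and the KO and WT libraries 2, 3 and 4, so that a number shared with Het islets differs between these sources. With the replicate block shared over all groups by the description number, KO against WT with cytokines had 3 genes (where 4.29% of all genes passed), with Sdf2l1 and Pdia3 lost, and cytokines in KO, Het and WT islets had 13, 12 and 13. With the block by title number, added after seeing the data, KO against WT with cytokines also had 3 (where 4.6% did), with the same genes lost, and cytokines in KO, Het and WT islets had 14, 14 and 13. With the block within genotype, where both sources pair the same libraries, those 3 had 14, 13 and 12. The cytokine counts under these blocks are given without the share of all genes, and were not set against it.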
